A study of Mus musculus with 6 samples.

Results

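Retinal ganglion cell genes were followed in whole P21 mouse retinae that lacked Rb1 and p107, with or without loss of Hells. Ganglion cells are the output neurons of the retina, and their axons form the optic nerve. The 10 genes were Pou4f1, Pou4f2, Pou4f3, Rbpms, Sncg, Thy1, Nefl, Nefm, Nefh and Slc17a6. They were chosen by symbol as genes that mark these cells, with earlier results of these data known. All 10 were among the 24062 genes of the count table and among the 16904 genes with enough reads to be tested. RNA-seq read counts were available from 3 Rb1/p107/Hells TKO retinae (Chx10-Cre; Rb1 lox/lox; p107-/-; Hells lox/lox) and 3 Rb1/p107 DKO retinae (Chx10-Cre; Rb1 lox/lox; p107-/-) at postnatal day 21. The comparison asks how the added loss of the chromatin remodeler HELLS changed expression in retinae with Rb1 and p107 deleted. Both groups carried the germline p107 deletion in every cell. Chx10-Cre is active in a mosaic of retinal progenitors, so each retina also held cells in which the floxed alleles were intact. There was no wild-type group, and the Rb1/p107 DKO was the reference throughout.

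Retinal ganglion cells arise first among the retinal neurons. The POU-domain factors BRN3A (Pou4f1), BRN3B (Pou4f2) and BRN3C (Pou4f3) act after the proneural factor ATOH7 and, in different combinations, direct ganglion cell differentiation, axon growth and subtype identity. Mature ganglion cells carry the RNA-binding protein RBPMS, gamma-synuclein and the surface glycoprotein THY1, fill their long axons with neurofilaments and release glutamate loaded into vesicles by VGLUT2 (Slc17a6). Several of these genes are not exclusive to ganglion cells in the retina. Neurofilament is also found in horizontal cells, for example, and Thy1 is widely expressed by neurons of the brain.

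RB1 and p107 act by binding E2F factors, so the upstream sequence of the genes was read for E2F letters and other promoter letters. RefSeq windows of the 250 bases before a transcript start (GRCm38.p6) were at hand for 4 of the 10 genes, with a second start for Slc17a6, giving 5 windows. The letters TTTNNCGC, an E2F-type site, were in 0 of these 5 windows on either strand, against 4.28% of 32851 windows of all genes. The GC box letters GGGCGG were in 4 of 5 windows, against 32.7% of all windows. CCAAT was in 0 of 5, against 33.8%, and the homeodomain core TAATTA was in 1 of 5, the second Slc17a6 start, against 4.84%. A set of 3 windows is shown, 5′ to 3′ on the strand of the gene, because it holds the starts of the BRN3A and BRN3B factors that define the cell and of the transporter that defines its transmitter. Capitals mark GGGCGG or its complement CCGCCC, counted with overlaps. A match describes the letters and no site was tested.
Pou4f1, chr14:104468000-104468249, minus strand: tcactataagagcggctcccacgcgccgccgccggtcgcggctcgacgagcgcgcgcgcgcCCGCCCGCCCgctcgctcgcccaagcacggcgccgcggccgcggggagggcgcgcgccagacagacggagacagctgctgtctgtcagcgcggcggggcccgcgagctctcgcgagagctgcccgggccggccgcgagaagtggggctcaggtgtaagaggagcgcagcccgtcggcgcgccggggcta
Pou4f2, chr8:78436648-78436897, minus strand: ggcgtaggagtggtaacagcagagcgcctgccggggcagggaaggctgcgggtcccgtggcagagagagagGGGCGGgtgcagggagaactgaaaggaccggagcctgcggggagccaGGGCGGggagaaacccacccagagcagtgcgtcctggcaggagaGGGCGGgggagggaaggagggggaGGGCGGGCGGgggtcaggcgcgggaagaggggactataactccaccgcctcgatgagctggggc
Slc17a6, chr7:51621580-51621829, plus strand: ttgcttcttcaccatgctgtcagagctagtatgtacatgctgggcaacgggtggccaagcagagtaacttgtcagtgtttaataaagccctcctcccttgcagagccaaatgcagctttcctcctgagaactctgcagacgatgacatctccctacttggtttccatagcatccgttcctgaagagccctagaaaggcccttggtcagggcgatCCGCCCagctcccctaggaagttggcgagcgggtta
The Pou4f1 window was 78.0% G or C with 47 CpG and 2 GC box matches. The Pou4f2 window was 70.8% G or C with 17 CpG and 5 matches, and the first Slc17a6 window was 53.2% G or C with 7 CpG and 1 match. The median window of all genes was 52.4% G or C with 6 CpG.

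Fitted differences in ganglion cell genes were at most 1.40-fold between the genotypes. With Benjamini-Hochberg adjustment over 16904 genes (edgeR quasi-likelihood test, adjusted p of at most 0.05), 1 of 10 rose in the Rb1/p107/Hells TKO retinae, the neurofilament heavy chain Nefh, and 0 of 10 fell. Of all genes tested, 16.6% passed this test, 7.35% as higher and 9.2% as lower in the TKO retinae. None of the 10 genes also met the study's further criterion of at least a 2-fold change (1 on the log2 scale). At an unadjusted p of at most 0.05, 2 passed (Nefh and Slc17a6, both higher), and with DESeq2 1 passed (Nefh, higher). The fitted log2 fold change was above 0 for 8 of 10 genes, against 48.7% of all genes, and its median was 0.19, against -0.01 for all genes. Without DKO replicate 1 the median of the 10 was 0.08, with 8 of 10 still above 0. With libraries scaled by total counts alone the median was 0.04, with 6 of 10 above 0. It was 0.28 without DKO replicate 3 and 0.24 without TKO replicate 1, each with 10 of 10 above 0. The median size of the change, regardless of direction, was 0.19 on the log2 scale, against 0.25 for all genes tested and 0.19 for the 11657 genes with a mean normalized count of at least 100. The 95% confidence interval of the log2 fold change lay within 1 of 0 for 9 of the 10 genes, all but Pou4f3, and included 0 for 8.

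**Figure D1:**
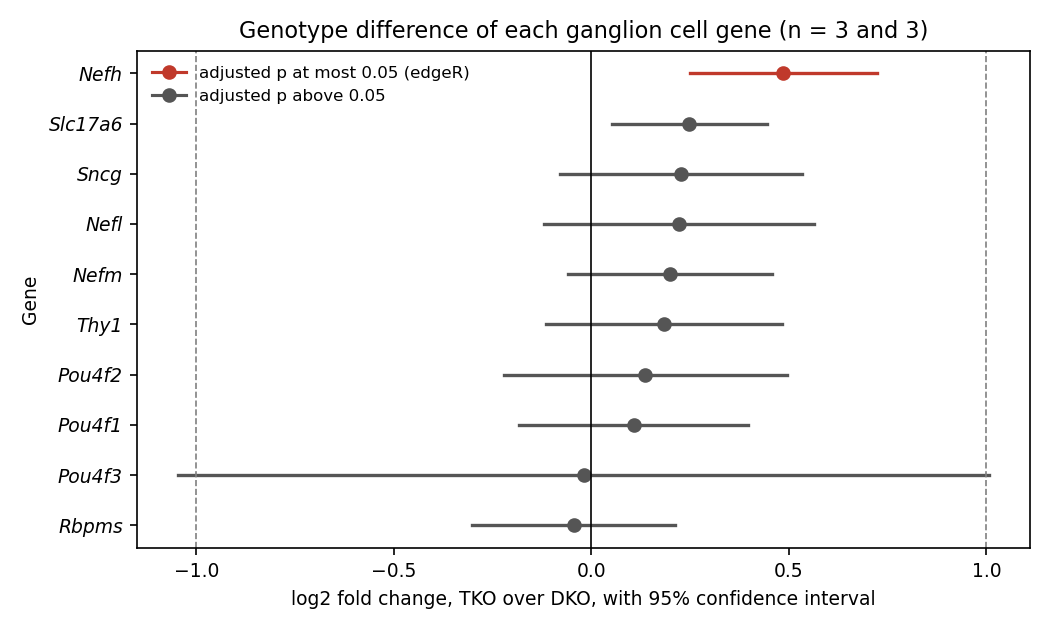
Fitted log2 fold change of each of the 10 genes (horizontal axis, TKO over DKO; n = 3 retinae each) with its 95% confidence interval, ordered by size, with dashed lines at a log2 change of 1 in each direction. The intervals of Nefh and Slc17a6 lie above 0, only Nefh passed the adjusted test, and the interval of Pou4f3 from -1.05 to 1.01 is the widest.

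The libraries held 10343907 to 14203098 counts each. Hells, the targeted gene, had normalized counts (counts put on a common library size) of 60.8, 68.4 and 83.5 in the 3 TKO retinae and 678, 523 and 395 in the 3 DKO retinae, a log2 fold change of -2.91 (SE 0.23, edgeR adjusted p = 0.00359). Markers of other cells moved with genotype. The sum of 5 rod markers, in counts per 1000000 library counts (CPM), was 24290 to 50010 in TKO and 8249 to 15810 in DKO retinae (5 of 5 higher), and the sum of 3 dividing cell markers was 25.5 to 113 in TKO and 283 to 636 in DKO retinae (3 of 3 lower). A pair of libraries stood apart by fibroblast or lens markers. DKO replicate 1 had 1320 CPM of 4 fibroblast markers against 17.3 to 127 in the other 5, and TKO replicate 2 had 257 CPM of 4 lens markers against 34.7 and 45.3 in the other TKO retinae and 1.93 to 2.12 in the DKO retinae. DKO replicate 1 was also the lowest of the 6 libraries for 7 of the 10 ganglion cell genes, and TKO replicate 2 the highest for 7. The 10 genes together took 1183, 1430 and 1607 CPM in the 3 DKO retinae and 1549, 1739 and 1676 in the 3 TKO retinae, so the groups overlapped only through DKO replicate 3. That library also had a rod sum of 15810 CPM, against 8507 and 8249 in the other DKO retinae. Its 4 astrocyte markers summed to 1045 CPM, against 594 and 427, and most of that sum was Gfap. Normalized counts of Gfap were 11560 in DKO replicate 3, against 5595 and 3948 in DKO replicates 1 and 2. The other 3 markers were not highest in DKO replicate 3. Aqp4 was at 1445 there against 1657 and 1172, S100b at 198 against 250 and 258, and Pax2 at 16.4 against 11.3 and 19.3. In TKO replicate 3 the rod sum was 24290 CPM, against 50010 and 42660 in the other TKO retinae. The part of dissection, rods or dividing cells in these values was not tested. In whole retinae, fewer ganglion cells and less RNA per ganglion cell cannot be told apart.

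**Figure D2:**
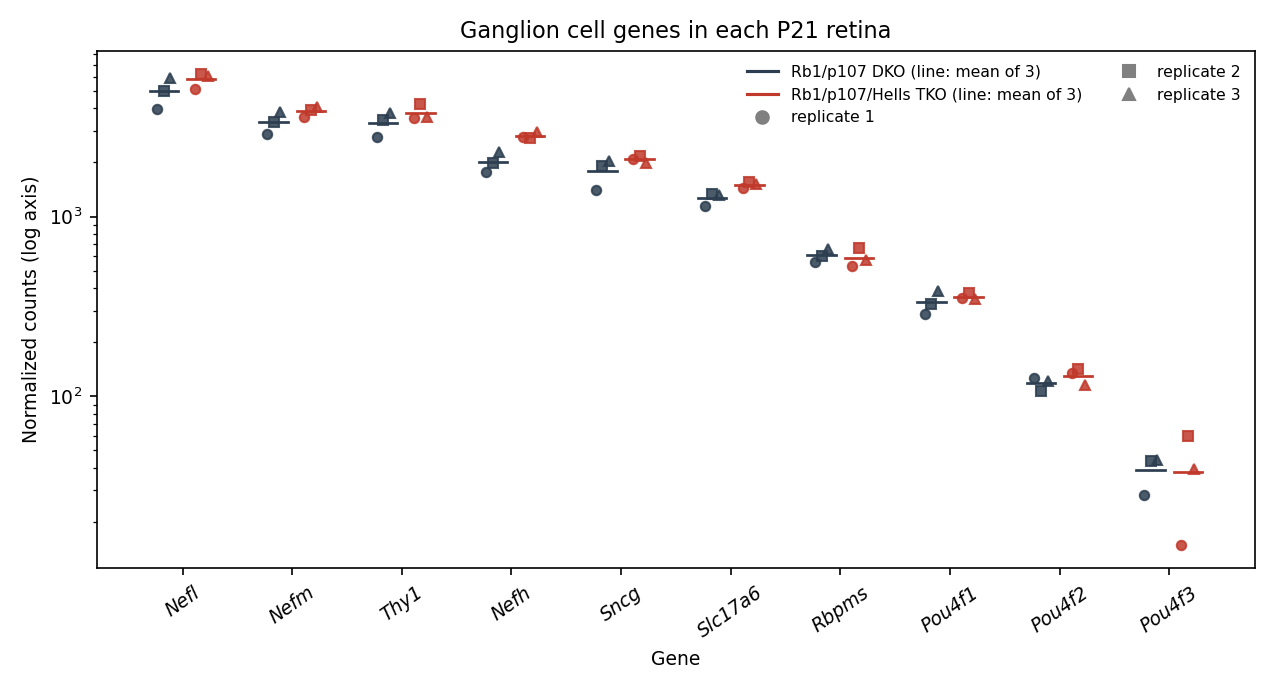
Normalized counts (log axis) of each ganglion cell gene in the 3 DKO and 3 TKO retinae, 1 point per retina with the shape giving the replicate number, and a line at the group mean. Groups overlap for 8 of 10 genes, and DKO replicate 1 (circle) is the lowest point of 7 genes.

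None of the BRN3 transcription factors that specify the cell passed the test, and their groups overlapped. Pou4f1 (chr14:104461676-104467999, GRCm38, minus strand) had normalized counts of 354, 375 and 347 in TKO and 287, 327 and 385 in DKO retinae, means of 359 ± 14.2 and 333 ± 49.3 (SD, n = 3). The TKO values lay inside the range of the DKO values, and the log2 fold change was 0.11 with a 95% interval from -0.18 to 0.40 (edgeR adjusted p = 0.592). It was 0.01 without DKO replicate 1 and 0.23 without DKO replicate 3. Pou4f2 (chr8:78433010-78436645, minus strand), the factor needed for most ganglion cells to survive and extend axons, had 134, 141 and 115 in TKO and 127, 106.8 and 122 in DKO retinae. The groups overlapped, with a log2 fold change of 0.14 and an interval from -0.22 to 0.50 (adjusted p = 0.581).

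Pou4f3, the last of the 3 BRN3 genes, lies at chr18:42394539-42397249 on the plus strand and was the lowest of the 10. Its counts were 13, 57 and 32 in TKO and 30, 50 and 51 in DKO retinae, which became 14.9, 60.0 and 39.3 against 28.2, 43.8 and 44.0 after normalization. The lowest and the highest of the 6 values were both TKO retinae. The fitted log2 fold change was -0.02 with an interval from -1.05 to 1.01 (edgeR adjusted p = 0.980), and it was -0.52 without TKO replicate 2 and 0.36 without TKO replicate 1. The interval allows a change of about 2-fold in either direction. The ratio of Pou4f1 to Pou4f2 counts within a library, which needs no scaling between libraries, was 2.64, 2.66 and 3.01 in TKO and 2.26, 3.06 and 3.16 in DKO retinae. These groups overlapped too (exact two-sided permutation test, p = 0.8, 0.8 after adjustment over 4 ratios, where the smallest p that 3 against 3 allows is 0.1).

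Rbpms (chr8:33782643-33929863, minus strand), whose RNA-binding protein labels ganglion cells of nearly every subtype, did not pass the test. Its normalized counts were 530, 665 and 577 in TKO and 558, 607 and 664 in DKO retinae, and the lowest and the highest values were both TKO. The log2 fold change was -0.05 with an interval from -0.30 to 0.21 (edgeR adjusted p = 0.810). It is the gene of the 10 with the smallest upper bound, a fold of 1.16.

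Sncg and Thy1 did not pass the test, and their groups overlapped. Sncg (chr14:34370274-34374789, minus strand) encodes gamma-synuclein, a small soluble protein of axons and cell bodies. Its normalized counts were 2101, 2163 and 1992 in TKO and 1399, 1906 and 2039 in DKO retinae, means of 2085 ± 86.6 and 1782 ± 338 (SD, n = 3). The DKO values spread more widely with replicate 1 low, and DKO replicate 3 lay above the lowest TKO value. The log2 fold change was 0.23 with an interval from -0.08 to 0.53 (edgeR adjusted p = 0.273). Thy1 (chr9:44043384-44048579, plus strand), which encodes a membrane-anchored glycoprotein of the immunoglobulin family, had 3530, 4220 and 3556 in TKO and 2761, 3432 and 3766 in DKO retinae. DKO replicate 3 lay above both of the lower TKO values, and the log2 fold change was 0.18 with an interval from -0.12 to 0.48 (adjusted p = 0.362). Without DKO replicate 1, the log2 fold changes were 0.08 for Sncg and 0.07 for Thy1, and without TKO replicate 2 that of Thy1 was 0.09. Thy1 is also a T cell gene in mice, and the T cell markers Cd3d, Cd3e and Cd3g summed to between 0 and 0.346 CPM in the 6 retinae.

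Among the neurofilament chains, which assemble into the filaments that set axon calibre, the heavy chain rose and the other chains did not pass the test. Nefh (chr11:4938754-4948064, minus strand), the heavy chain that is added last as axons mature, had normalized counts of 2763, 2724 and 2970 in TKO and 1780, 1974 and 2283 in DKO retinae. All 3 TKO values lay above all 3 DKO values, as was so in one or the other direction for 38.6% of all genes tested. The log2 fold change was 0.49 (SE 0.10, interval 0.25 to 0.72, edgeR adjusted p = 0.0179), a fold of 1.40 with bounds of 1.19 and 1.65. This call was lost without DKO replicate 1 (0.41, adjusted p = 0.0599), without DKO replicate 2 (0.47, adjusted p = 0.0782), without TKO replicate 2 (0.51, adjusted p = 0.0624) and with libraries scaled by total counts alone (0.33, adjusted p = 0.0617). It was also lost with the replicate block (0.49, edgeR adjusted p = 0.0566). Over 15 alternatives the adjusted p of Nefh ran from 0.000723 to 0.0782.

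Nefl (chr14:68083863-68089095, plus strand) encodes the light chain, the core of the filament, and had the highest counts of the 10 genes. Its normalized counts were 5140, 6184 and 6040 in TKO and 3982, 5004 and 5896 in DKO retinae. The groups overlapped through DKO replicate 3, and the log2 fold change was 0.22 with an interval from -0.12 to 0.56 (edgeR adjusted p = 0.333). Nefm (chr14:68082590-68124846, minus strand), the middle chain, had 3580, 3911 and 4050 in TKO and 2894, 3358 and 3796 in DKO retinae, with a log2 fold change of 0.20 and an interval from -0.06 to 0.46 (adjusted p = 0.253). Without DKO replicate 1 the log2 fold changes were 0.09 for Nefl and 0.10 for Nefm, and without DKO replicate 3 they were 0.37 and 0.30. Annotated exons of Nefl and Nefm overlap on opposite strands over 1108 bases, 32.8% of the exon length of Nefl and 19.2% of that of Nefm. The strand setting of the counting was not given in the sources used here, so the counts of this pair are less certain.

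Ratios within a library set the chains against each other without scaling between libraries. Nefh counts were 0.772, 0.696 and 0.733 of Nefm counts in TKO and 0.615, 0.588 and 0.601 in DKO retinae, means of 0.734 ± 0.0376 and 0.601 ± 0.0136 (SD, n = 3). The groups did not overlap, at the smallest p that this design allows (exact two-sided permutation test, p = 0.1, 0.4 after adjustment over 4 ratios). Nefh to Nefl was 0.537, 0.440 and 0.492 in TKO and 0.447, 0.395 and 0.387 in DKO retinae, with overlap (exact p = 0.2, adjusted 0.4). Nefm to Nefl was 0.697, 0.632 and 0.670 against 0.727, 0.671 and 0.644 (exact p = 0.6, adjusted 0.8). This exact test cannot give a p below 0.1 for any of these ratios with 3 retinae in each group. Neurofilament is shared with horizontal cells, and 0 of 5 horizontal cell markers passed the test in these retinae, with a summed level of 264 to 333 CPM in TKO and 281 to 329 in DKO. That sum was mostly Calb1 and Prox1, at log2 fold changes of 0.09 and 0.02, while the transcription factor genes Lhx1, Onecut1 and Onecut2 were at -0.87, -1.24 and -0.70 (edgeR adjusted p = 0.185, 0.0511 and 0.117). Onecut1 did not overlap between the groups, as for 38.6% of all genes in either direction, and passed with DESeq2 (adjusted p = 0.00826). The part of horizontal cells in the neurofilament values was not tested. Markers of optic nerve oligodendrocytes, which can be carried along with a dissected retina, summed to 75.2 to 86.0 CPM in TKO and 95.8 to 99.4 in DKO. Of 5 tested, 2 fell, against 9.2% of all genes. The part of these cells in the Nefh difference was not tested.

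**Figure D3:**
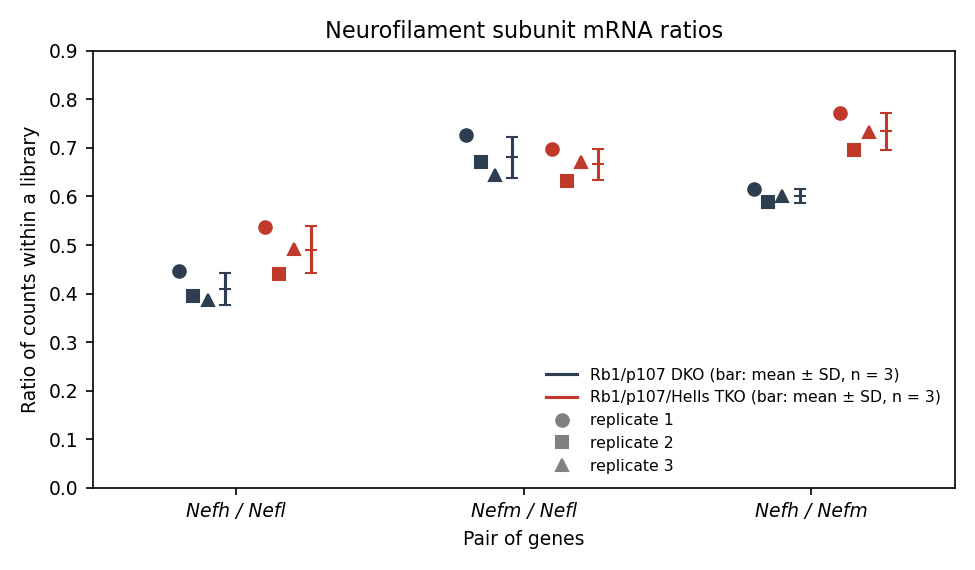
Ratio of the counts of a pair of neurofilament genes within each library (vertical axis), 1 point per retina, with the group mean ± SD (n = 3) beside the points. The Nefh to Nefm ratio is 0.696 to 0.772 in the TKO and 0.588 to 0.615 in the DKO retinae, while the other ratios overlap.

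Slc17a6 (chr7:51622006-51671119, plus strand) encodes VGLUT2, the vesicular glutamate transporter of ganglion cells. Its normalized counts were 1445, 1558 and 1508 in TKO and 1142, 1330 and 1325 in DKO retinae, means of 1504 ± 56.5 and 1266 ± 107.4 (SD, n = 3). All 3 TKO values were above all 3 DKO values, as for Nefh and no other of the 10 genes. The log2 fold change was 0.25 (SE 0.09, interval 0.05 to 0.44), with an unadjusted p of 0.0187 from edgeR that did not pass the adjustment over all genes (edgeR adjusted p = 0.0821, DESeq2 adjusted p = 0.0901). A fold between 1.04 and 1.36 is therefore within its interval.

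Compared per length, as CPM per kilobase of merged exon (RPKM), the genes covered a wide span. Sncg, the shortest with 852 exon bases, was highest at 194 ± 8.04 in TKO and 165 ± 31.3 in DKO (SD, n = 3). Nefl followed at 135 ± 13.2 and 116 ± 22.4, and Thy1 at 99.5 ± 10.3 and 87.6 ± 13.5. In the DKO retinae neither Sncg and Nefl nor Nefl and Thy1 were separated beyond their spread. Nefm was at 52.6 ± 3.30 in TKO and 45.8 ± 6.16 in DKO and Nefh at 55.8 ± 2.62 and 39.8 ± 5.02, and their values overlapped in both genotypes. Nefm was the fourth and Nefh the fifth in the DKO order, and the reverse in the TKO order. Slc17a6 came next at 22.0 ± 0.828 and 18.5 ± 1.57 RPKM. Rbpms was at 7.12 ± 0.829 and 7.35 ± 0.638, Pou4f1 at 6.07 ± 0.241 and 5.63 ± 0.834, Pou4f2 at 3.21 ± 0.328 and 2.92 ± 0.259 and Pou4f3 at 1.25 ± 0.744 and 1.27 ± 0.298. The order of these 5 genes was the same in both genotypes, and no neighbours among them overlapped.

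Spread between retinae of 1 genotype was larger in the DKO group for 7 of the 10 genes. The coefficient of variation in DKO retinae was 8.48% for Slc17a6, 8.69% for Rbpms and 8.86% for Pou4f2, and 19.3% for Nefl and 19.0% for Sncg. In TKO retinae it was 3.76% for Slc17a6, 3.96% for Pou4f1, 4.15% for Sncg and 4.69% for Nefh, and 59.3% for Pou4f3, the gene with the fewest counts.

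Of 7 family relatives of the 10 genes, 1 passed the test, as higher, against 16.6% of all genes past the test and 7.35% as higher. The list median log2 fold change was 0.08. The one that rose was Slc17a7, which encodes VGLUT1, the glutamate transporter of photoreceptors and bipolar cells. Slc17a7 had normalized counts of 21150, 19880 and 12660 in TKO and 5444, 5643 and 10070 in DKO retinae. The groups did not overlap, as for 38.6% of all genes in either direction. The Slc17a7 log2 fold change was 1.34 (SE 0.28, edgeR adjusted p = 0.0162). This call was lost without TKO replicate 2, DKO replicate 1 or DKO replicate 2, and with the replicate block. Its adjusted p ran from 0.00323 to 0.0773 over the alternatives. Rod markers moved the same way, as given above, and their part in the Slc17a7 difference was not tested. Sncb, the beta-synuclein gene, had a log2 fold change of 0.08 (adjusted p = 0.710), and the 6 relatives that did not pass lay between -0.92 and 0.28.

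Of 13 other ganglion cell transcription factors, 2 passed the test, both as lower, against 16.6% of all genes past the test and 9.2% as lower. Of the 13, 11 were fitted below 0 and 2 above, against 48.7% of all genes above 0. Their median log2 fold change was -0.32. Both that fell belong to the EBF family of helix-loop-helix factors, which act downstream of BRN3B and are also expressed by other retinal neurons. Ebf2 had normalized counts of 8.03, 8.42 and 16.0 in TKO and 135, 81.4 and 77.7 in DKO retinae. The groups did not overlap, as was so in either direction for 38.6% of all genes tested. The Ebf2 log2 fold change was -3.18 (SE 0.37, edgeR adjusted p = 0.00513). Ebf3 had 688, 730 and 750 in TKO and 1463, 1283 and 1025 in DKO retinae, with a log2 fold change of -0.80 (SE 0.13, adjusted p = 0.00821). Both calls held whichever single retina was left out, but not with the replicate block (edgeR adjusted p = 0.05045 for Ebf2 and 0.0566 for Ebf3). The 11 that did not pass lay between -1.51 and 0.14.

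Of 10 genes of ganglion cell subtypes and of the cell surface, 2 rose, 1 fell and 7 did not pass, against 16.6% past the test among all genes, with a median log2 fold change of 0.18. At an unadjusted p of at most 0.05 (edgeR), 5 passed, and with DESeq2 3 passed. Jam2, an adhesion molecule that marks a direction-selective subtype, rose from 1128, 1089 and 1208 normalized counts in DKO to 2351, 2071 and 1721 in TKO retinae (log2 fold change 0.84, SE 0.12, edgeR adjusted p = 0.00691). Which cells carried the Jam2 rise was not tested. Adcyap1, the PACAP peptide gene of melanopsin ganglion cells, had 35.8, 39.4 and 36.3 in DKO and 75.7, 71.6 and 54.0 in TKO retinae (log2 fold change 0.85, SE 0.22, adjusted p = 0.0355). The Adcyap1 call was lost when any one retina other than TKO replicate 3 was left out and with total counts only (0.69, adjusted p = 0.0582), and its adjusted p ran from 0.0202 to 0.117 over the alternatives. Spp1, which encodes osteopontin and is also made by activated microglia, fell from 2091, 661 and 757 in DKO to 346, 354 and 457 in TKO retinae (log2 fold change -1.60, SE 0.41, adjusted p = 0.0338). Without DKO replicate 1, the library with fibroblast markers, it was -0.88 (adjusted p = 0.0363), and without TKO replicate 1 or 2 it did not pass (adjusted p = 0.104 and 0.117, against a lowest value of 0.0192 over the alternatives), nor did it with robust dispersion (adjusted p = 0.103). None of the calls of Jam2, Adcyap1 and Spp1 held with the replicate block (edgeR adjusted p = 0.0566, 0.090 and 0.090). The 7 genes that did not pass lay between 0.08 and 0.23.

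Of 11 genes of growing axons and of neurons in general, 1 rose, 2 fell and 8 did not pass, against the same 16.6%, with a median log2 fold change of -0.15. Of the 11, 9 were fitted below 0 and 2 above, against 48.7% of all genes above 0. At an unadjusted p of at most 0.05 (edgeR), 6 passed. With DESeq2 4 passed, among them Elavl4 as lower (DESeq2 adjusted p = 0.0275). Groups did not overlap for 5 as lower and 1 as higher, against 38.6% of all genes in either direction. Gap43, a growth cone protein, had normalized counts of 572, 697 and 795 in TKO and 1155, 1135 and 1188 in DKO retinae. The groups did not overlap, as for 38.6% of all genes in either direction. The Gap43 log2 fold change was -0.75 (SE 0.12, edgeR adjusted p = 0.00780). Elavl3, a neuronal RNA-binding protein, had 2115, 2419 and 2875 in TKO and 3508, 3693 and 3165 in DKO retinae (log2 fold change -0.49, SE 0.12, adjusted p = 0.0313). Map1b, a microtubule-associated protein of axons, went the other way, with 12320, 9371 and 8624 in TKO and 6350, 4651 and 6475 in DKO retinae (log2 fold change 0.80, SE 0.17, adjusted p = 0.0194). The Gap43 call held whichever single retina was left out. Those of Elavl3 and Map1b were lost without TKO replicate 1, TKO replicate 2, DKO replicate 1 or DKO replicate 2. With the replicate block all 3 calls were lost (edgeR adjusted p = 0.0556 for Gap43, 0.0881 for Elavl3 and 0.0591 for Map1b). The 8 genes that did not pass lay between -0.50 and 0.01.

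Markers of the other inner retinal cells are given beside these lists because some are neighbours of ganglion cells or share their genes. For comparison, 16.6% of all genes passed the test, 7.35% as higher and 9.2% as lower. Amacrine cell markers summed to 1424 to 1709 CPM in TKO and 1554 to 1743 in DKO retinae, and 0 of 8 passed the test (edgeR, 3 at an unadjusted p of at most 0.05 and 3 with DESeq2). The 3 went in both directions, with Tfap2b and Gad2 lower and Chat higher in TKO. Their DESeq2 log2 fold changes were -0.39, -0.47 and 0.76 (DESeq2 adjusted p = 0.0398, 0.0265 and 0.0350). For horizontal cells, 0 of 5 passed (edgeR, 2 unadjusted and 1 with DESeq2), with a median log2 fold change of -0.70. For bipolar cells 1 of 5 rose, for Muller glia 2 of 3 rose, and for astrocytes, which follow ganglion cell axons, 0 of 4 passed (2 unadjusted and 0 with DESeq2), at 250 to 445 CPM in TKO and 427 to 1045 in DKO retinae. Fibroblast markers had 0 of 4 past the test (edgeR, 1 unadjusted), and 4 of 4 lens markers were higher in TKO. DESeq2 gave no adjusted p for the fibroblast markers Col1a1, Col1a2 and Lum, and Dcn did not pass (DESeq2 adjusted p = 0.204). All of the rod, dividing cell, Muller glia, lens and oligodendrocyte differences were present in the same libraries as the 10 ganglion cell genes, and their part in the levels of these genes was not tested.

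**Figure D4:**
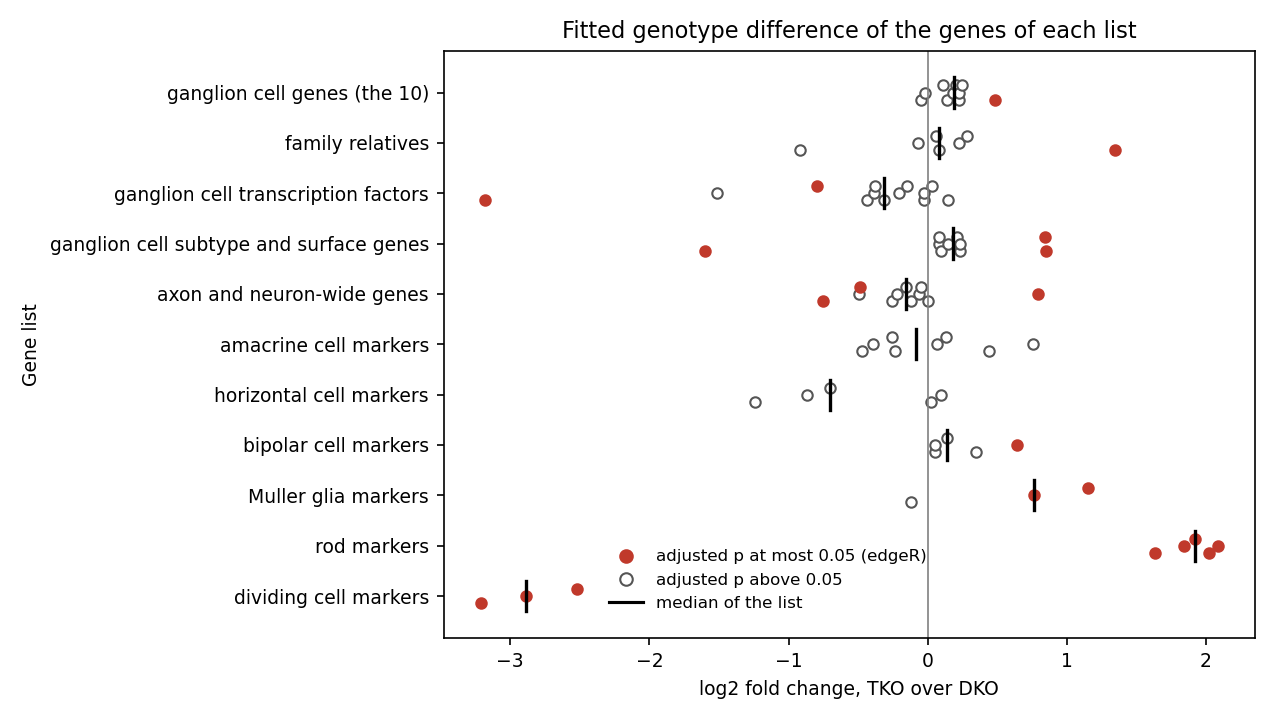
Fitted log2 fold change (TKO over DKO) of every tested gene of each list, with filled points for an edgeR adjusted p of at most 0.05 and a bar at the list's median. The 10 ganglion cell genes lie between -0.05 and 0.49, while the 3 dividing cell markers lie at or below -2.52 and the 5 rod markers at or above 1.63.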

How the data were processed

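Poly(A)-selected RNA from 6 whole P21 retinae was sequenced by the authors, with 1 count column per retina. The deposited values are raw read counts per gene symbol. The paper's methods name STAR and HTSeq on GRCm38 with reads of several alignments allowed, whereas the submitters' processing notes name TopHat2, featureCounts, DESeq2 and mm10/GRCm38. Which of these made the counts was not settled, and the strand setting is not given in the sources used here, so overlapping genes are less certain.

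Genes had to reach a sum of 10 over the 6 libraries. The test was the quasi-likelihood F test of edgeR 4.0.16 (R 4.3.3) after TMM scaling, without covariates, with Benjamini-Hochberg adjustment over 16904 genes, and a change was called at an adjusted p of at most 0.05. The paper's stricter criterion adds a 2-fold change (1 on the log2 scale) and a mean normalized count of 10. Normalized counts were put on the mean TMM-scaled library size, and CPM and RPKM use the same scaled sizes. Each SE comes from the log2 fold change and F, and intervals (95%) use the moderated degrees of freedom. Exact permutation tests were two-sided. DESeq2 1.42.0, other scalings and filters, a replicate block and leaving out each retina were the alternatives.

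Coordinates and exon lengths come from GENCODE M21 (GRCm38), which is not the release the paper names, and merged exons include alternative ones. Promoter windows are RefSeq GRCm38.p6. Labels give the genotype and number of a retina. Nothing in them says that retinae came from separate litters. The edgeR p-values therefore set a genotype difference against the spread within each genotype among these 6 retinae. No pair of retinae of 1 genotype agreed within counting error (chi-square over its degrees of freedom 8.61 to 25.3). The 10 genes and the lists were chosen with earlier results of these data known. All 10 were named, with Hells and, from each other list, up to 4 called genes by smallest adjusted p, or the 2 with the largest mean count where fewer than 2 were called.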

Additional observations from a re-analysis of the deposited data

How the results depend on the processing

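The 15 alternatives left Nefh as the only one of the 10 genes that passed in any of them. Its log2 fold change stayed between 0.33 and 0.59, with edgeR or DESeq2 adjusted p from 0.000723 to 0.0782. The count of ganglion cell genes called, and of those called higher, was 1, and became 0 with total counts only and 0 with the replicate block. Leaving out 1 retina gave 0 to 1 in both counts, with 0 without TKO replicate 2, DKO replicate 1 or DKO replicate 2. No gene was called lower in any alternative. In the other ganglion cell and neuron lists 9 genes were called, 0 with the replicate block, and 4 (without TKO replicate 2) to 11 (without DKO replicate 3) with 1 retina left out, of which 5 without TKO replicate 1, DKO replicate 1 or DKO replicate 2. Fewer retinae, or fewer residual degrees of freedom under the block, were part of these alternatives by construction. Replicate numbers did not pair the retinae: deviations of same-numbered retinae correlated at 0.07, -0.05 and -0.23, and 1 of 6 retinae correlated best with its own number. Scaling by total counts alone moved the log2 median over all genes from -0.01 to -0.17 and over the 10 genes from 0.19 to 0.04, and turned Pou4f1 (-0.05) and Pou4f2 (-0.02) below 0 and Sncb to -0.07. Pou4f3 changed sign in 3 alternatives, from -0.52 to 0.36, and Rbpms in 2, from -0.20 to 0.03, neither called. Ebf2 has no value under the filter of 10 counts in every library. Pou4f3 had the fewest counts of the 10 genes, 13 to 57 per library, and what sets its wide interval was not tested.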
